A study of Mus musculus with 6 samples.

Results

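Tetraspanins are small proteins that pass through the membrane repeatedly and bind one another, integrins, proteases and immunoglobulin-family proteins, holding them together in patches of the cell surface or of endosomes. Uroplakins 1a and 1b, which form the plaques of the urothelial surface, belong to the same family. The genes described here are tetraspanins outside the uroplakins: Tspan1, Tspan8, Tspan13, Tspan15, Cd9, Cd81, Cd82, Cd53 and Cd37, with Cd63 listed but not analysed here. They were chosen by name, and every probe set that the platform annotation assigns to 1 of them alone was read on all 6 arrays. That gave 18 probe sets for 9 of the 10 listed genes, out of 45037 probe sets and 18193 genes with a probe set of their own. Of these genes, 6 had more than 1 probe set. In many epithelia Cd9 and Cd81 organise adhesion and membrane shape, Tspan1 and Tspan8 are known from epithelial surfaces, Tspan15 steers the protease Adam10, and Cd53 and Cd37 are surface proteins of leukocytes.

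The RNA came from cells labelled as bladder epithelium, taken on postnatal day 7 and divided into DsRed-positive cells (3 arrays) and DsRed-negative cells (3 arrays), with the numbers 1, 2 and 5 in each group. The labels give both groups the same allele, B6;129P-Upk1btm1Zhang/J, as the reported gene, the same cross, FVB/N x C57BL/6, and the sex male; how the cells were parted is not stated. Samples were not pooled according to the labels, which do not say whether each is another mouse. The p-values thus reflect only the spread among these arrays, part of which may be technical. Every RNA was amplified in 2 rounds, and the number of arrays limits the precision.

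Before the tetraspanins are described, the arrays themselves need 3 remarks. Both arrays numbered 1 went against the label male: Xist, the RNA of the inactive X chromosome, had a deposited signal of 28183 and 45699 there and at most 546 on the other 4 arrays, while the Y-linked Eif2s3y was at 31.2 and 3.83 there and at least 3309 elsewhere. By these signals, the arrays numbered 1 came from other mice than arrays 2 and 5. Whether arrays 2 and 5 came from different mice is not known. Results are therefore also given without both arrays numbered 1. For the labelled cell type, all 13 general epithelial markers were higher in the DsRed-positive arrays, with a summed deposited signal of 369828 to 559476, against 42338 to 101864 in the DsRed-negative arrays. In the DsRed-negative arrays 9 fibroblast and matrix markers summed to 772126 to 1727427, against 15569 to 29337 in the DsRed-positive ones, and all 9 were lower in DsRed-positive cells. Of 6 smooth muscle markers 5 were lower (Acta2 and Tagln with the smallest p; sums of 7478 to 11767 against 140760 to 227838), and of 5 endothelial markers 4 (Cldn5 and Tek; 1569 to 2011 against 10381 to 14683). Thus the groups differed in markers of cell type as well as in the reporter, and the part of cell makeup in the tetraspanin results was not tested. In such bulk samples, fewer cells of a type and less RNA per cell cannot be told apart.

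Among the 9 genes, each read on its brightest probe set, Cd9 and Tspan1 were higher in DsRed-positive cells, Cd53 and Cd81 were lower, and 5 did not pass the test. Of 14222 genes tested in the same way, 9.21% were called higher, 11.3% lower and 20.5% in either direction. The median log2 change of the 9 was 0.26, beside 0.035 over all genes tested. A gene was called by limma at an adjusted p (Benjamini-Hochberg, over all 30175 tested probe sets) under 0.05, and values are log2 signals after quantile normalization unless called deposited. By probe set, 15 of 18 passed the filter on dim signal, 2 were called higher, 2 lower and 11 not, beside 8.63% of all tested probe sets called higher, 8.62% lower and 17.2% in either direction.

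**Figure D1:**
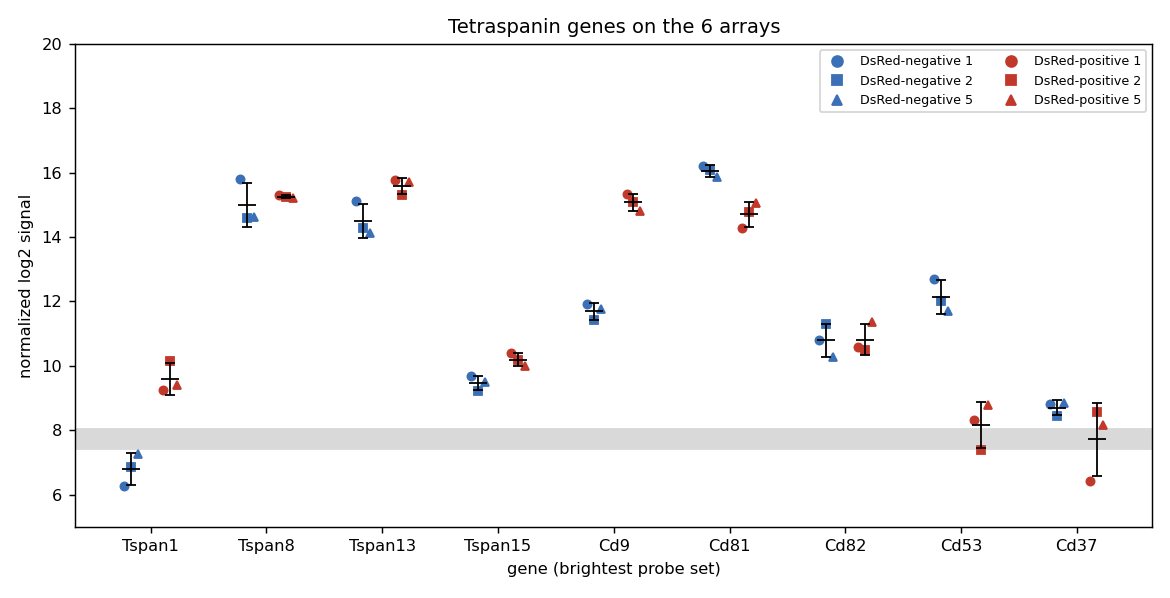
Normalized log2 signal (vertical axis) of the brightest probe set of 9 tetraspanin genes (horizontal axis) on each of the 6 arrays, with black bars for the mean and SD of 3 arrays. The grey band spans the control levels of the 6 arrays, 7.41 to 8.03. The groups lie apart for Cd9, Tspan1, Cd53 and Cd81, and also for Tspan13 and Tspan15, which were not called. How many of all genes tested lie apart in this way was not counted, so this describes the figure only. Signals of different genes are not comparable with each other.

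Cd9, which binds integrins, Epcam and immunoglobulin-family partners at the cell surface, was higher in DsRed-positive cells. Arrays 1, 2 and 5 of the DsRed-positive group, in this order here and below, read 31167, 35841 and 28676 (deposited signal). The matching DsRed-negative readings were 3736, 2608 and 3290. All DsRed-positive arrays were high, all DsRed-negative arrays were low but above the control level, and the groups did not overlap. On the normalized scale Cd9 was 15.08 ± 0.26 (SD, n = 3) in DsRed-positive and 11.70 ± 0.26 in DsRed-negative cells, higher by 3.37 ± 0.34 (SE) in log2 or 10.4-fold (limma, adjusted p = 0.000641). Without both arrays numbered 1 the change was 3.44 (adjusted p = 0.0207). Cd9 had a single probe set.

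Tspan1, an epithelial tetraspanin of the surface and of endosomal membranes, rose above the control level only in DsRed-positive cells on the probe set used. The DsRed-positive arrays read 485, 1017 and 608, the DsRed-negative ones 47.3, 98.8 and 139. The latter all lay below the control level, which is the 95th percentile of 27 control probe sets without a target and was 203 to 268 in the DsRed-negative arrays. Tspan1 was therefore at least 3.45-fold higher in DsRed-positive cells (9.60 ± 0.49 against a measured 6.80 ± 0.50, adjusted p = 0.00381). Without both arrays numbered 1 it was still called (2.72 on the log2 scale, adjusted p = 0.0445). The second Tspan1 probe set was at or below the control level on all 6 arrays and was not tested.

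Cd53, a tetraspanin of leukocytes, had the largest decrease. The DsRed-negative arrays read 6511, 3819 and 3148. The DsRed-positive arrays read 214, 96.4 and 370. The groups did not overlap, and DsRed-positive array 2 lay below its control level. Normalized, Cd53 was 8.17 ± 0.71 in DsRed-positive cells and 12.14 ± 0.51 in DsRed-negative cells, a difference of -3.97 ± 0.47 (adjusted p = 0.00136). Leaving out both arrays numbered 1 gave -3.71 (adjusted p = 0.0380). The second Cd53 probe set was dim and was not tested. Of 8 tested general leukocyte markers, 6 were lower in DsRed-positive cells, and the list summed to 20860 to 36465 in DsRed-negative and 5164 to 6460 in DsRed-positive arrays. Of these markers Coro1a was at or below the control level on all DsRed-positive arrays, and Laptm5 (-5.94 ± 0.41) and Ptprc (-5.09 ± 0.57), the common leukocyte antigen, had the smallest p, while Lcp1 was at 1.64 and Fcer1g at -0.47 without passing. Of 6 tested mast cell markers 3 were lower, among them Cpa3 and Hdc at or below the control level in DsRed-positive cells. Gata2 (1.03), Tpsb2 (0.22) and Kit (-0.75) did not pass. Of 8 macrophage markers 3 were lower, C1qb and Csf1r with the smallest p. The part of these cells in the Cd53 result was not tested.

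Cd37, the other leukocyte tetraspanin, is best known from B cells. It read 458, 404 and 486 in DsRed-negative cells and 35.8, 277 and 220 in DsRed-positive cells. DsRed-positive array 1 was far below the rest, and arrays 2 and 5 lay near the DsRed-negative group, with which the group overlapped after normalization. The log2 change was -0.98 ± 0.57 (adjusted p = 0.287), and -0.27 without both arrays numbered 1. The second Cd37 probe set was below the control level on all 6 arrays and was not tested. Of 3 tested B cell markers none was called by limma, though 2 had an unadjusted p under 0.05; Blk had a value of -2.08 (adjusted p = 0.0614), Cd79b -0.97 and Ms4a1 0.01. Of 4 tested T cell markers 3 were lower, and these 3, Cd3e, Cd3g and Cd2, were at or below the control level in every DsRed-positive array.

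Cd81, a close relative of Cd9 that binds Igsf8, Ptgfrn and interferon-induced membrane proteins, was high in both groups and moved the opposite way. The DsRed-negative arrays read 75076, 93336 and 75270. The DsRed-positive arrays read 18502, 28950 and 33144. All DsRed-positive arrays were lower than all DsRed-negative arrays. The log2 change was -1.34 ± 0.35 (14.71 ± 0.40 against 16.05 ± 0.18, adjusted p = 0.0374), or 2.53-fold. The call did not hold in any fit without 1 array (adjusted p from 0.0604 to 0.119), without both arrays numbered 1 (-1.15, adjusted p = 0.192), or with the numbers as a block (adjusted p = 0.0785). With each array centred on its median the change was -1.09 (adjusted p = 0.0577).

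The difference between Cd9 and Cd81 within an array takes out most of the array scaling. Cd9 minus Cd81 read 1.05, 0.29 and -0.25 in the DsRed-positive group and -4.30, -4.66 and -4.09 in the other. The groups were far apart, by 4.72 on the log2 scale (0.36 ± 0.65 against -4.35 ± 0.28, SD, n = 3), and by 4.93 with the values as deposited. Only the shift between groups can be read, since signals of different probe sets are not comparable. The exact two-sided permutation test gave p = 0.1, the smallest that 3 arrays against 3 allow, and 0.1 after adjustment over the 3 pairs compared. Both genes already lay apart between the groups in opposite directions. This p was therefore fixed by their own values and adds nothing to the results of each gene. For Tspan1 minus Tspan8 no size is given, since Tspan1 lay below the control level on all DsRed-negative arrays. The same holds for Cd53 minus Cd37, since Cd37 on DsRed-positive array 1 and Cd53 on DsRed-positive array 2 lay below it.

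**Figure D2:**
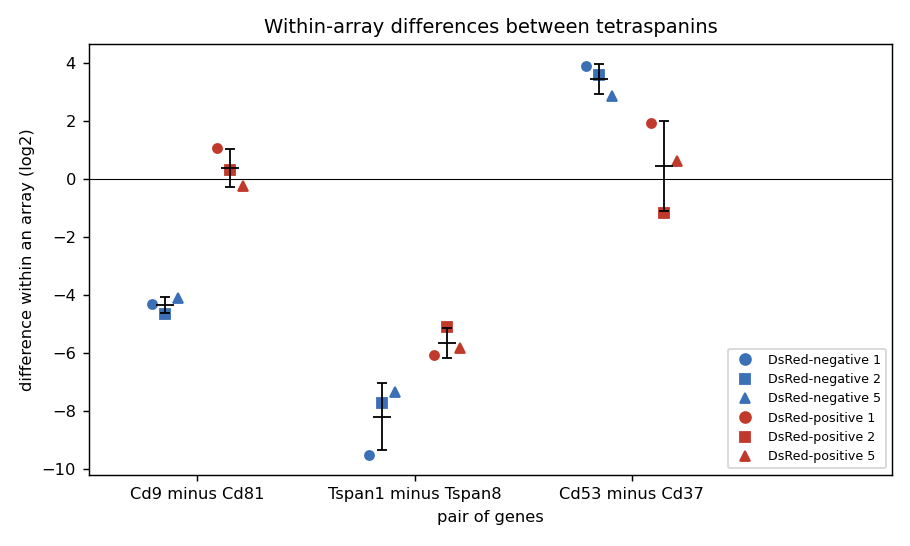
Difference in normalized log2 signal between both genes of a pair within each array (vertical axis), for 3 pairs (horizontal axis), with black bars for the mean and SD of 3 arrays. DsRed-negative and DsRed-positive arrays do not overlap as measured, and for Cd9 minus Cd81 the means are -4.35 and 0.36. The other pairs include signals below the control level, so the size of their shift cannot be read.

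The stretch of 250 bases before the annotated start is shown for both genes called higher, for both called lower, Cd81 and Cd53, and for Cd37, the other leukocyte gene, which was not called. Sequences are from RefSeq (GRCm38.p6), 5′ to 3′ on the gene's strand, and the windows lie at chr6:125494761-125495010 (Cd9, minus strand), chr4:116167599-116167848 (Tspan1, minus strand), chr7:143052500-143052749 (Cd81, plus strand), chr3:106790150-106790399 (Cd53, minus strand) and chr7:45238840-45239089 (Cd37, minus strand). Capitals mark GGGCGG, the GC box of Sp and Krüppel-like factors, on either strand in the first 3, and GAGGAAGT, a motif of the leukocyte ETS factor PU.1, on either strand in the last 2.
Cd9: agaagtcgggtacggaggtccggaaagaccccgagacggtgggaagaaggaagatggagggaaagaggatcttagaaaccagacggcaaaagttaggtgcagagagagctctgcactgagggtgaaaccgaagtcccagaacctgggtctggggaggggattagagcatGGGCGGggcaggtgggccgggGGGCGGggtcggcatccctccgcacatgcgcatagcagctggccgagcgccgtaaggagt
Tspan1: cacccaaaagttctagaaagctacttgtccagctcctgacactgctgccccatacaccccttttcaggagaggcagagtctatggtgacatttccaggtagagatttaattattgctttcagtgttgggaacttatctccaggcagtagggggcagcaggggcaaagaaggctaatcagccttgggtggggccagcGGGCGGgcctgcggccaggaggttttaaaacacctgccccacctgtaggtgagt
Cd81: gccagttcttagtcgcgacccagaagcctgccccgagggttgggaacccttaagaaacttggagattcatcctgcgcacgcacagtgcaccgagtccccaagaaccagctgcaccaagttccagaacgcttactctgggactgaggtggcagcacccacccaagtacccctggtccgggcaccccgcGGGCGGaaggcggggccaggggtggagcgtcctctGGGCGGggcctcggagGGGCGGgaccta
Cd53: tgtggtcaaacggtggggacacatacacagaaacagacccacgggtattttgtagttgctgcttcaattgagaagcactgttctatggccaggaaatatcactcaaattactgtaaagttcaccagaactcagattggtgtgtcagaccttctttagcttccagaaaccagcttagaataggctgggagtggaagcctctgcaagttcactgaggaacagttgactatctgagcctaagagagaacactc
Cd37: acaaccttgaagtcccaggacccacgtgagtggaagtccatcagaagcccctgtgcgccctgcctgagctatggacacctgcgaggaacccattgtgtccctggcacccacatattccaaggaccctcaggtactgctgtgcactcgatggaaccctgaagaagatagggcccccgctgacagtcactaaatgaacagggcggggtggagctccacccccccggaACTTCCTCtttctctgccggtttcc
The GC box occurred at 2 places in Cd9, 1 in Tspan1 and 3 in Cd81, thus in genes that moved either way, and 32.7% of all 32851 windows of this length held it. Cd37 held the PU.1-type motif on the opposite strand, from 25 to 18 bases before the start, and a GC box from 53 to 48 bases before it. The letters of the PU.1-type motif were in 2.44% of all windows and not in this window of Cd53. A window of Cd82, not shown, also held this motif, from 225 to 218 bases before the start, and Cd82 was not called. The GC box of Cd37 is not in capitals. The motifs did not overlap one another. None of the 13 windows of the 10 listed genes held the grainyhead motif AACCNGTT, which was in 1.79% of all windows. The motifs were chosen with these sequences in view, and a match is a description of letters only.

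Tspan13 and Tspan15 had changes above 0 that did not pass the test. Tspan13 (also called NET-6) read 37643, 41310 and 51385 in DsRed-positive cells and 35745, 19997 and 17668 in DsRed-negative cells on its brighter probe set. Array 1 of the DsRed-negative group lay near the DsRed-positive arrays, and the other arrays of that group were clearly lower. The log2 change was 1.09 ± 0.39 (adjusted p = 0.0967), and the second probe set gave 1.18 ± 0.40 (adjusted p = 0.0875). With each array centred on its median, both Tspan13 probe sets were called higher (1.43 and 1.65, adjusted p = 0.0376 and 0.0260), and without DsRed-negative array 1 the brighter one was (1.39, adjusted p = 0.0488).

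Tspan15, one of the tetraspanins that bind and direct Adam10, read 1314, 1035 and 959 in DsRed-positive cells. DsRed-negative cells gave 802, 669 and 751. All DsRed-positive arrays were above all DsRed-negative arrays by a small margin, with a log2 change of 0.72 ± 0.32 (adjusted p = 0.175). Cd82, known as a suppressor of metastasis in human tumours, read 1534, 1296 and 2627 in DsRed-positive cells and 1712, 2439 and 1244 in DsRed-negative cells. The groups overlapped fully, and the log2 change was 0.02 ± 0.42 (adjusted p = 0.985). The second Cd82 probe set gave 0.14 ± 0.38 (adjusted p = 0.841).

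**Figure D3:**
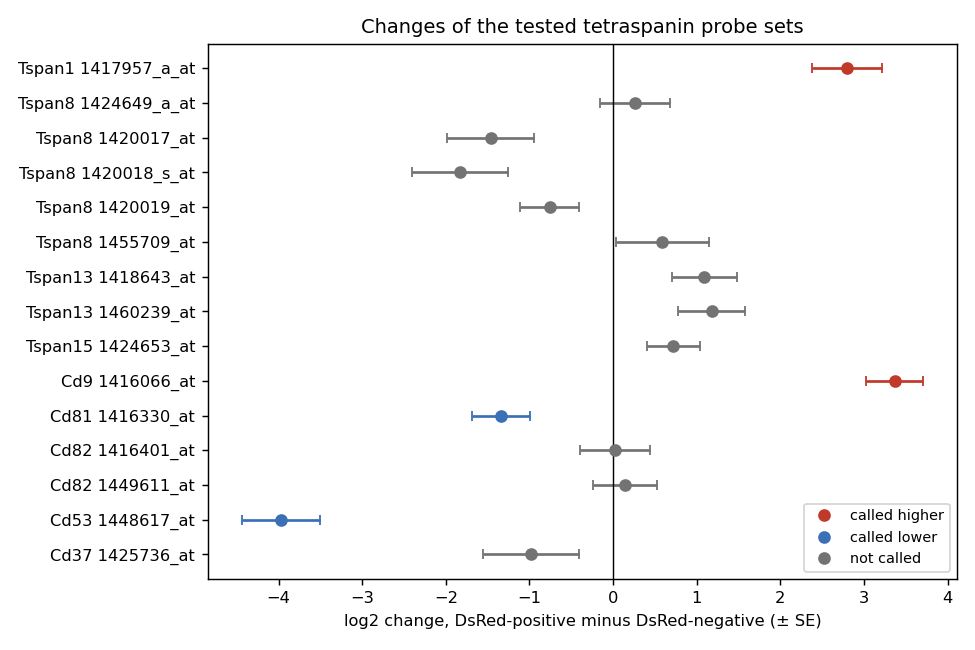
Log2 change between DsRed-positive and DsRed-negative arrays (horizontal axis, with SE) for the 15 tested tetraspanin probe sets (vertical axis). Cd9 (3.37) and Tspan1 (2.80) were called higher, Cd53 (-3.97) and Cd81 (-1.34) lower; the Tspan8 probe sets lie on both sides of 0.

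Tspan8, a tetraspanin of gut and other epithelia, gave signals that depended on the probe set. Its brightest probe set (1424649_a_at) read 30849, 40149 and 36498 in DsRed-positive cells and 56672, 24775 and 26617 in DsRed-negative cells. The groups overlapped because DsRed-negative array 1 was the highest of all 6, and the log2 change was 0.26 ± 0.42 (adjusted p = 0.713). Another 3 probe sets, which the annotation traces to 1 shared source sequence, had lower signals in DsRed-positive cells. Of these, 1420017_at read 4916, 5227 and 5297 in DsRed-positive cells and 30816, 8221 and 9022 in DsRed-negative cells. All of its DsRed-positive values lay below all DsRed-negative ones, and DsRed-negative array 1 was again far above the rest. None of the 3 passed, with log2 changes of -1.46 ± 0.52 (adjusted p = 0.1), -1.83 ± 0.57 (1420018_s_at, adjusted p = 0.0679) and -0.76 ± 0.35 (1420019_at, adjusted p = 0.180). With 1420018_s_at, the call was reached with an offset at the 50th percentile, with trend and robust estimation (adjusted p = 0.0376 and 0.0361) and without DsRed-negative array 2 (-2.21, adjusted p = 0.0476). The fifth probe set (1455709_at) gave 0.59 ± 0.56 (adjusted p = 0.516). Thus Tspan8 RNA was bright in both groups, and no direction can be given.

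**Figure D4:**
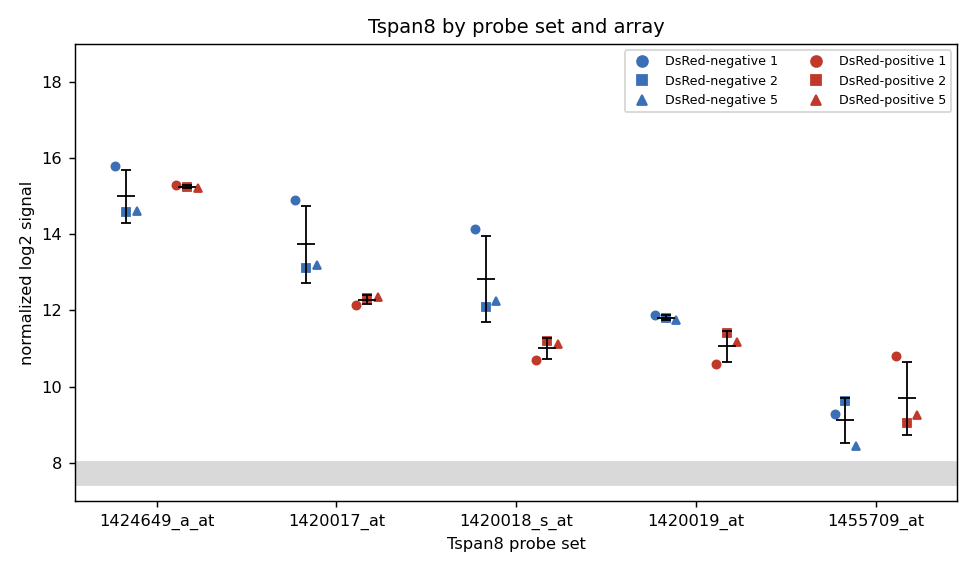
Normalized log2 signal (vertical axis) of 5 Tspan8 probe sets (horizontal axis) on each of the 6 arrays, with black bars for the mean and SD of 3 arrays and a grey band for the control levels. DsRed-negative array 1 is the highest array on 1424649_a_at, 1420017_at and 1420018_s_at, and the group difference changes sign between probe sets.

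DsRed-negative array 1 was the highest of its group for Cd53, for Cd9, for Tspan15, for both Tspan13 probe sets and for 4 of the 5 Tspan8 probe sets. It was also the highest for Cd81 after normalization, and it was the lowest for the tested Tspan1 probe set, below the control level, and for the dimmer Cd82 probe set. The general epithelial markers summed to 101864 on that array, against 51490 and 42338 on DsRed-negative arrays 2 and 5. The leukocyte markers summed to 36465 there, against 22800 and 20860, and the fibroblast markers to 772126, against 1727427 and 1347059. The part of these differences in the tetraspanin values of that array was not tested.

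For comparison, both uroplakin tetraspanins were higher in DsRed-positive cells, Upk1a by 4.44 ± 0.34 (adjusted p = 0.000219) and Upk1b, on its brightest probe set, by 4.27 ± 0.48 (adjusted p = 0.00105). The 4 Upk1b probe sets gave changes from 3.18 to 4.28. The sample titles name the groups by uroplakin, and the labels give an Upk1b allele as the reported gene. The uroplakin values may therefore not be independent of the grouping. Differences in size between these genes and Cd9 or Tspan1 were not tested.

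The rest of the tetraspanin family was mostly lower or not called. Of 19 further tetraspanins, 17 were tested on 1 probe set each, of which 2 were higher, 6 lower and 9 not called, with a median log2 change of -0.44. Shares over all genes tested were 9.21% called higher and 11.3% lower. Tspan33, a partner of Adam10, was higher by 2.59 ± 0.44 (adjusted p = 0.00686); it read 1325, 2061 and 2160, against 524, 314 and 206 in DsRed-negative cells. Tspan12, known in mice for its part in Norrin signalling in retinal vessels, was higher by 2.55 ± 0.48 (adjusted p = 0.0107), with 2284, 2210 and 2237 against 302, 841 and 241. The Tspan33 probe set bears a suffix for sequence shared with other genes. Another of its probe sets without that suffix was also higher (1451608_a_at, 1.74 ± 0.41, adjusted p = 0.0264). Its probe set 1425157_x_at was not called (0.66 ± 0.31, adjusted p = 0.193), and 1451609_at was dim and was not tested. Tspan12 was read only on a probe set with a suffix of this kind, and its call was lost without both arrays numbered 1 (2.35, adjusted p = 0.126).

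Among the lower genes, Tspan4, which organises migrasomes, had the largest decrease. It read 447, 1553 and 299 in DsRed-positive cells and 9216, 11316 and 9051 in DsRed-negative cells, a difference of -3.86 ± 0.56 (adjusted p = 0.00334). The DsRed-positive arrays differed among themselves, array 2 being the highest, and all lay far below the other group. Tspan5, another partner of Adam10, changed by -1.97 ± 0.34 (adjusted p = 0.00730) on the brightest of its probe sets, while the other gave -0.13. Tspan9 (-1.59 ± 0.32, adjusted p = 0.0146), Tspan18 (-1.72 ± 0.41, adjusted p = 0.0261) and Tspan31 (-1.26 ± 0.32, adjusted p = 0.0335) were also lower on their brightest probe sets. On its brightest, Tspan11 was at least 3.39-fold lower (adjusted p = 0.0420). Tspan11 read 19, 60 and 74 in DsRed-positive cells and 784, 230 and 1373 in DsRed-negative cells. DsRed-negative array 2 thus lay about at its control level of 230. Other tested probe sets were not called. Tspan31 gave -0.19 (1430029_a_at, adjusted p = 0.8) and Tspan18 gave -0.68 (1429856_at, adjusted p = 0.352). Tspan11 gave -1.60 and -0.84 (1441776_at and 1436626_at, adjusted p = 0.268 and 0.454). Tspan9 and Tspan31 were not called with each array centred on its median (-0.95 and -0.75, adjusted p = 0.0944 and 0.146). Tspan31 lost its call in every fit without 1 array, Tspan11 and Tspan18 in 5 of 6 (adjusted p up to 0.147 and 0.114) and Tspan9 without DsRed-positive array 1 or 2 (adjusted p up to 0.0654). Without 1 array the lower genes numbered 2 to 5: 2 without DsRed-positive array 1 or 2, and 3 without DsRed-positive or DsRed-negative array 5. Without both arrays numbered 1, only Tspan33 was called (3.14, adjusted p = 0.0241), and none of the 6 lower genes was.

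Several further family members had probe sets that disagreed or were not called. Tspan2 was not called on its brightest probe set (-1.59, adjusted p = 0.103), but both others were lower (adjusted p = 0.0116 and 0.0192). Tspan6 gave 1.20 (adjusted p = 0.125) on one probe set and 1.61 (adjusted p = 0.0233) on the other. Cd151, the tetraspanin that binds laminin-binding integrins, had values from -0.71 to 0.00 on its 5 tested probe sets, none of them called, although its signal was high in both groups (13.75 ± 0.40 and 13.75 ± 0.19).

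Of the 6 tetraspanins known to escort Adam10 (Tspan5, Tspan10, Tspan14, Tspan15, Tspan17 and Tspan33), 1 was higher, 1 lower and 4 not called. Over all genes tested, 20.5% were called in either direction. Adam10 itself, a membrane protease that sheds cadherins and Notch, was higher by 1.76 ± 0.33 (adjusted p = 0.00983), reading 25726, 28045 and 33427 against 11035, 7395 and 8260. All DsRed-positive arrays were higher than all DsRed-negative arrays. Without both arrays numbered 1 its change was 1.98 (adjusted p = 0.0654). Tspan14 (1.08, adjusted p = 0.128) and Tspan17 (0.34, adjusted p = 0.653) did not pass, though Tspan14 was called with each array centred on its median (1.60, adjusted p = 0.0356).

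Genes of proteins that bind tetraspanins moved in both directions in RNA signal. Of 26 such genes 22 were tested, of which 4 were higher, 7 lower and 11 not called, with a median log2 change of -0.67. Beside them, 9.21% of all genes tested were called higher and 11.3% lower. The epithelial adhesion protein Epcam (3.19 ± 0.37, adjusted p = 0.00126) and the claudin Cldn7 (4.54 ± 0.55, adjusted p = 0.00151), which associate with Cd9, were higher, as were Adam10 and the integrin chain Itga6 (1.88, adjusted p = 0.0269). The vascular adhesion protein Vcam1 was at least 229-fold lower, and its integrin chain Itga4 (-3.15), Icam1 (-1.87) and Cd44 (-2.56) were lower. The Cd81-associated Ifitm1 (-5.14 ± 0.35, adjusted p = 0.000154) and Ifitm3 (-3.50 ± 0.37, adjusted p = 0.000834) were lower, and so was Timp1 (-4.83 ± 0.51, adjusted p = 0.000797), a ligand of Cd63. The immunoglobulin-family partners Ptgfrn (-1.13, adjusted p = 0.0829) and Igsf8 (0.43, adjusted p = 0.594) and the integrin chain Itgb1 (-0.48, adjusted p = 0.343) did not pass. Itga6 lost its call in 4 of the 6 fits without 1 array (adjusted p up to 0.102). Icam1 lost it without DsRed-positive array 1 or 5 (adjusted p up to 0.0566), and Itga4 without DsRed-positive array 1 (adjusted p = 0.0539). Without both arrays numbered 1, 2 of the 4 higher genes, Epcam and Cldn7, were called, and 5 of the 7 lower ones, with Itga4 (adjusted p = 0.135) and Icam1 (adjusted p = 0.0821) not called.

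**Figure D5:**
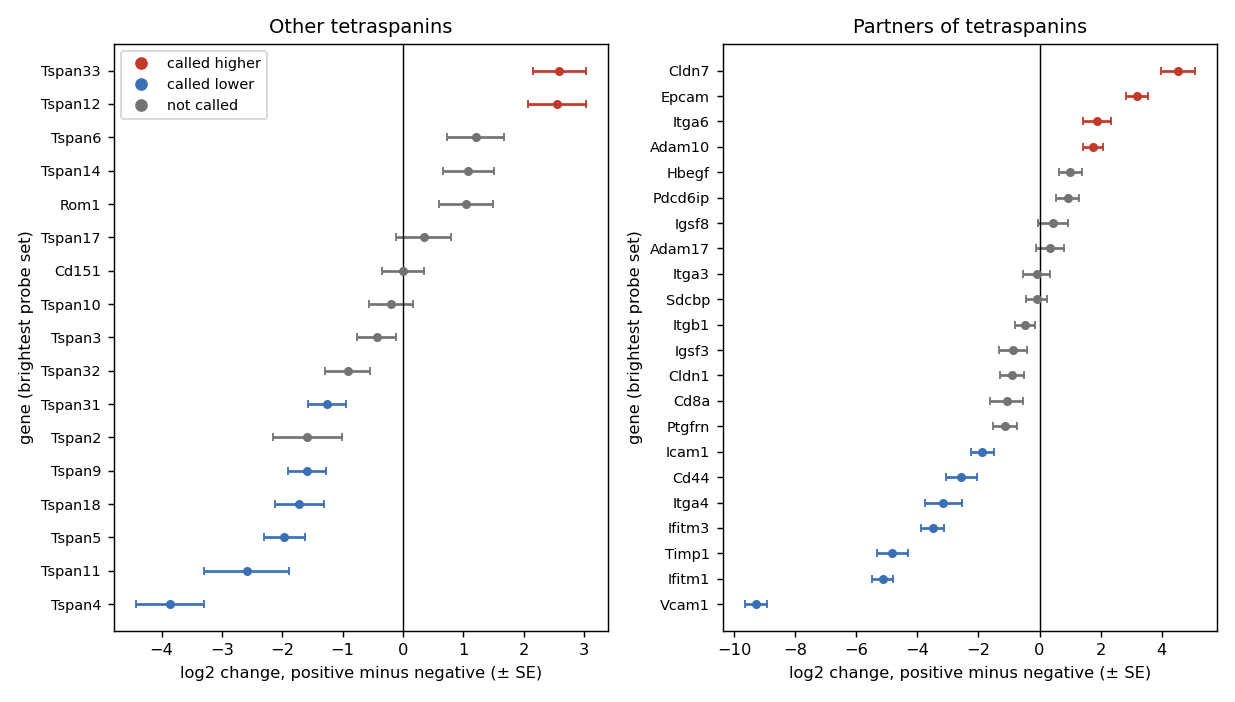
Log2 change between DsRed-positive and DsRed-negative arrays (horizontal axes, with SE) of 17 other tetraspanins (left) and 22 partner genes (right), one brightest probe set per gene, ordered by change. Tspan33 and Tspan12 lead the higher and Tspan4 the lower tetraspanins; among partners Cldn7 (4.54) and Vcam1 (-9.29) lie at the ends.

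Membrane and sorting genes of the late endosome and lysosome, the compartment in which Cd63 is known to reside, were mostly not called. Most of all genes tested were not called either, with 9.21% called higher, 11.3% lower and 20.5% in either direction. Of 11 tested genes 1 was called higher, the protease Ctsd (1.35 ± 0.36, adjusted p = 0.0409), and none lower by limma (1 lower with trend and robust estimation, 2 at an unadjusted p under 0.05); the median log2 change was -0.01. The Ctsd call was lost in 5 of the 6 fits without 1 array, and without both arrays numbered 1 (adjusted p = 0.0925). Lamp1, an abundant lysosomal membrane protein, had 15.90 ± 0.14 against 15.97 ± 0.22 (change -0.07), Lamp2 a change of -0.97 (adjusted p = 0.124) and the sorting factor Tsg101 one of 1.01 (adjusted p = 0.0837).

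Likeness of pattern was measured as the root mean square difference of log2 values over the 6 arrays, after subtracting each gene's own mean, and is a description only. Genes picked in this way have nearly the same change as the member, so their calls follow largely from the choice. Nearest to Cd9 were Spag1 (0.16), Tpd52l1 (0.18) and Gpa33 (0.19), and nearest to Tspan1 were Mapk11 (0.07), Fdps (0.21) and Shroom3 (0.26). All 6 were called higher. Tspan1 lay below the control level on all DsRed-negative arrays, so its likeness there compares background signal. Cd53 lay below that level on DsRed-positive array 2, and Cd37 on DsRed-positive array 1. Nearest to Cd53 were Abcc9 (0.18), Msrb3 (0.21) and Tek (0.25), the angiopoietin receptor of endothelium, all called lower. Another tetraspanin, Tspan31, was the second nearest gene to Cd81 (0.13), between Per1 (0.12) and Os9 (0.15). Genes near Tspan13 (Ubqln1, Ccdc47 and Nelfb, 0.10 to 0.11) and near Tspan15 (Rtraf, Fgfr1op2 and Cct5, 0.07 to 0.10) were not called, as for both members. The same held for the genes nearest to Tspan8 (Pcdhb21, Igfbp3 and Pdzd11), Cd82 (Htt, Nudt22 and Usp3) and Cd37 (Nxnl1, Tnfrsf18 and Gm5547).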

How the data were processed

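The authors deposited 1 linear intensity per probe set for each Affymetrix mouse array. Per the submitters' processing notes GCOS was used; for its settings, nothing is given in the sources. The mean of every array after trimming 2% at both ends was 1500.01, the same to the last digit. Groups follow the sample titles. An offset of 39.84 (the 20th percentile) was added before log2. The array medians spanned 0.74, over the limit of 0.2, so log2 values were quantile normalized. Of 45101 probe sets 64 controls were removed, and the 30175 whose mean exceeded 7.18 (33rd percentile) entered limma 3.58.1 in R 4.3.3 (lmFit and eBayes, two-sided), with Benjamini-Hochberg adjustment over all of them. The fit was tested on simulated data. Symbols came from the platform annotation, updated through gene IDs: 34945 probe sets had 1 symbol, 932 several and 9160 none here. A gene was read on its brightest probe set. Where all arrays of a group lay at or below the 95th percentile of 27 control probe sets without a target, the fold was computed against that level. The members and lists were chosen with earlier results of these data known. Named were all members, every called gene of the family, partner and lysosome lists with others that illustrate a gap, the 3 genes most like each member, and for marker lists those with the smallest p; others named in marker lists were chosen after their values were seen. Same-numbered arrays deviated from their group means with correlations of 0.15, 0.04 and 0.05, so the numbers were not taken as pairs. Small correlations do not show that same-numbered arrays came from different mice, and both arrays numbered 1 had high Xist. Alternatives were other scalings, offsets, filters and variance models, other choices of probe sets, the numbers as a block, and fits without 1 array or without both arrays numbered 1.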

Additional observations from a re-analysis of the deposited data

How the results depend on the processing

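Cd9, Tspan1 and Cd53 kept their direction and call in every alternative run on their probe sets. Of member probe sets, 4 were called higher with each array centred on its median, with an offset at the 50th percentile and with trend and robust estimation, Tspan13 adding 2. One was called lower (1 gene) with each array centred on its median, with the numbers as a replicate block, without both arrays numbered 1, with an offset of 1 and with no filter. Without 1 array, 2 to 3 member probe sets were higher and 1 to 2 lower, and by gene 2 to 3 were higher and 1 lower.

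Over all probe sets, 4871 were higher with each array centred on its median, 926 higher and 1253 lower without both arrays numbered 1, and 1102 to 2586 higher without 1 array. Scaling set the balance: the median change of all tested probe sets was 0.09 when quantile normalized, -0.19 as deposited and 0.35 when median-centred, and higher probe sets made up 50%, 38.8% and 67.8% of calls. Of the other tetraspanins, 4 were higher with each array centred on its median, 1 without both arrays numbered 1 and 1 without probe sets ending in _s_at or _x_at; 0 were lower without both arrays numbered 1, and 2 to 5 without 1 array. Of partner genes, 2 were higher without both arrays numbered 1. Of lysosome genes, 2 were higher with each array centred on its median, an offset at the 50th percentile, trend and robust estimation, or the mean of all probe sets, and 0 with the replicate block, without both arrays numbered 1, with an offset of 1 or with no filter; 1 was lower with trend and robust estimation, and 0 to 1 were higher without 1 array.

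The replicate block, with which Cd81 (adjusted p = 0.0785), Tspan31 (0.0751), Tspan11 (0.0537) and Ctsd (0.0677) lost their calls, changed no other call among the genes compared. Deviations from the group mean were correlated only between arrays of different groups. Each array correlated best with that of its own number (0.15, 0.04 and 0.05, against -0.08 to 0.01 otherwise). These correlations were small and are a hint from the data only.

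Signs turned only for changes that were not called in the main fit. Cd82 on its brightest probe set gave -0.26 to 0.28 without 1 array. Cd82 on the second gave -0.37 with the values as deposited and 0.00 without both arrays numbered 1. Without 1 array it gave -0.15 to 0.33. Cd151 gave 0.08 with the values as deposited, 0.62 with centred arrays and 0.24 without both arrays numbered 1. Without 1 array it gave -0.18 to 0.22. Itgb1 turned from -0.48 to 0.19 with centred arrays. Lamp1 gave 0.02 with centred arrays, 0.07 without both arrays numbered 1 and -0.16 to 0.05 without 1 array. The cause of these changes was not tested. Dim probe sets of Tspan1, Cd53 and Cd37 limit what can be said of low levels.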
